A study of Canis lupus familiaris with 9 samples.

Results

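The enzymes that build triglyceride were examined in skeletal muscle of dogs fed without restriction and of dogs held at constant body weight. The list was the glycerol-3-phosphate acyltransferase GPAM, the lysophosphatidate acyltransferases AGPAT1, AGPAT2 and AGPAT3, the lipins LPIN1, LPIN2 and LPIN3, the diacylglycerol acyltransferases DGAT1 and DGAT2, and the monoacylglycerol acyltransferase MOGAT1. Members were all probe sets of the Affymetrix canine array whose only gene symbol in the platform annotation was one of these 10. That gave 20 of the 43035 probe sets, for 9 of the 10 genes. No probe set carried the symbol AGPAT3 in that annotation, so AGPAT3 was not analysed here. Where a gene had several, the one with the highest average of the 9 arrays stands for it, and the others are given beside it.

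The animals were 9 intact female beagles, 4 years old, sampled after 24 weeks of feeding and an overnight fast, with 1 array per dog. Dogs had been randomized to eat ad libitum (5 dogs, animals 2, 5, 6, 7 and 8) or to receive the amount that kept baseline body weight (control, 4 dogs, animals 1, 3, 4 and 9). Both groups ate the same commercial diet, Purina Pro Plan Performance Formula. The labels name no specific muscle, so the values describe skeletal muscle tissue with whatever cells lay between its fibres.

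Triglyceride is assembled on a glycerol backbone in a short series of steps at the mitochondrial outer membrane and the endoplasmic reticulum. A glycerol-3-phosphate acyltransferase adds a first fatty acid, a lysophosphatidate acyltransferase adds another, and a lipin removes the phosphate to leave diacylglycerol. A diacylglycerol acyltransferase then adds the last fatty acid, and a separate entry through monoacylglycerol uses the MOGAT enzymes. Muscle fibres store such triglyceride in small droplets as fuel, while adipocytes between the fibres make far larger amounts. DGAT1 and DGAT2 catalyse the same reaction but belong to unrelated protein families, and DGAT2 and MOGAT1 belong to one family.

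The deposited values are GCRMA values taken as log2, so a difference of 1 is a doubling of signal, and values of different probe sets cannot be ranked against each other. A probe set was tested when its log2 value was above 4 on at least 4 arrays, which 18394 probe sets were. Array pairs correlated at r = 0.934 to 0.981 over these, and 0 of the 36 pairs held identical values. Of the muscle fibre markers 10 of 11 were measured, with a mean of 15.1 to 15.6 in ad libitum and 15.4 to 15.6 in control dogs. None of the 5 hepatocyte and enterocyte markers with a probe set passed that filter. RNA quality, read from GAPDH as the 3' minus 5' log2 value, ran from 2.14 to 2.29 in ad libitum and from 1.96 to 2.22 in control dogs. Its mean was higher in ad libitum dogs, 2.21 ± 0.068 (SD, n = 5) against 2.09 ± 0.107 (SD, n = 4). Whether that bears on the differences below was not tested.

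Of the 9 genes with a probe set, 6 passed the filter and were tested (GPAM, AGPAT2, LPIN1, DGAT1, DGAT2 and MOGAT1). Of these 6, DGAT2, AGPAT2 and GPAM had higher means in ad libitum muscle and LPIN1, DGAT1 and MOGAT1 had lower means, while 49.6% of all represented genes had higher ones. With limma and Benjamini-Hochberg adjustment over all tested probe sets, 0 of the 6 passed an adjusted p of 0.05, and the share over all 18394 probe sets was 0%. At an unadjusted limma p under 0.05 there were 2 of 6, DGAT2 and AGPAT2, both higher in ad libitum dogs. Over all probe sets that count was 1088, or 5.91%, made up of 3.71% higher and 2.21% lower in ad libitum dogs. That count of 1088 fell to 695 when ad libitum dog 5 was omitted and grew to 2151 on omitting ad libitum dog 7, while the 2 of 6 stayed at 2 when each dog in turn was left out. The median log2 difference of the 6 genes, ad libitum minus control, was 0.12, against -0.0021 over the 7534 represented genes of the array. Omitting control dog 1 brought that median to -0.0010, and omitting ad libitum dog 5 to 0.30. The 6 did not shift together: their differences ran from -0.38 for MOGAT1 to 2.77 for DGAT2.

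**Figure D1:**
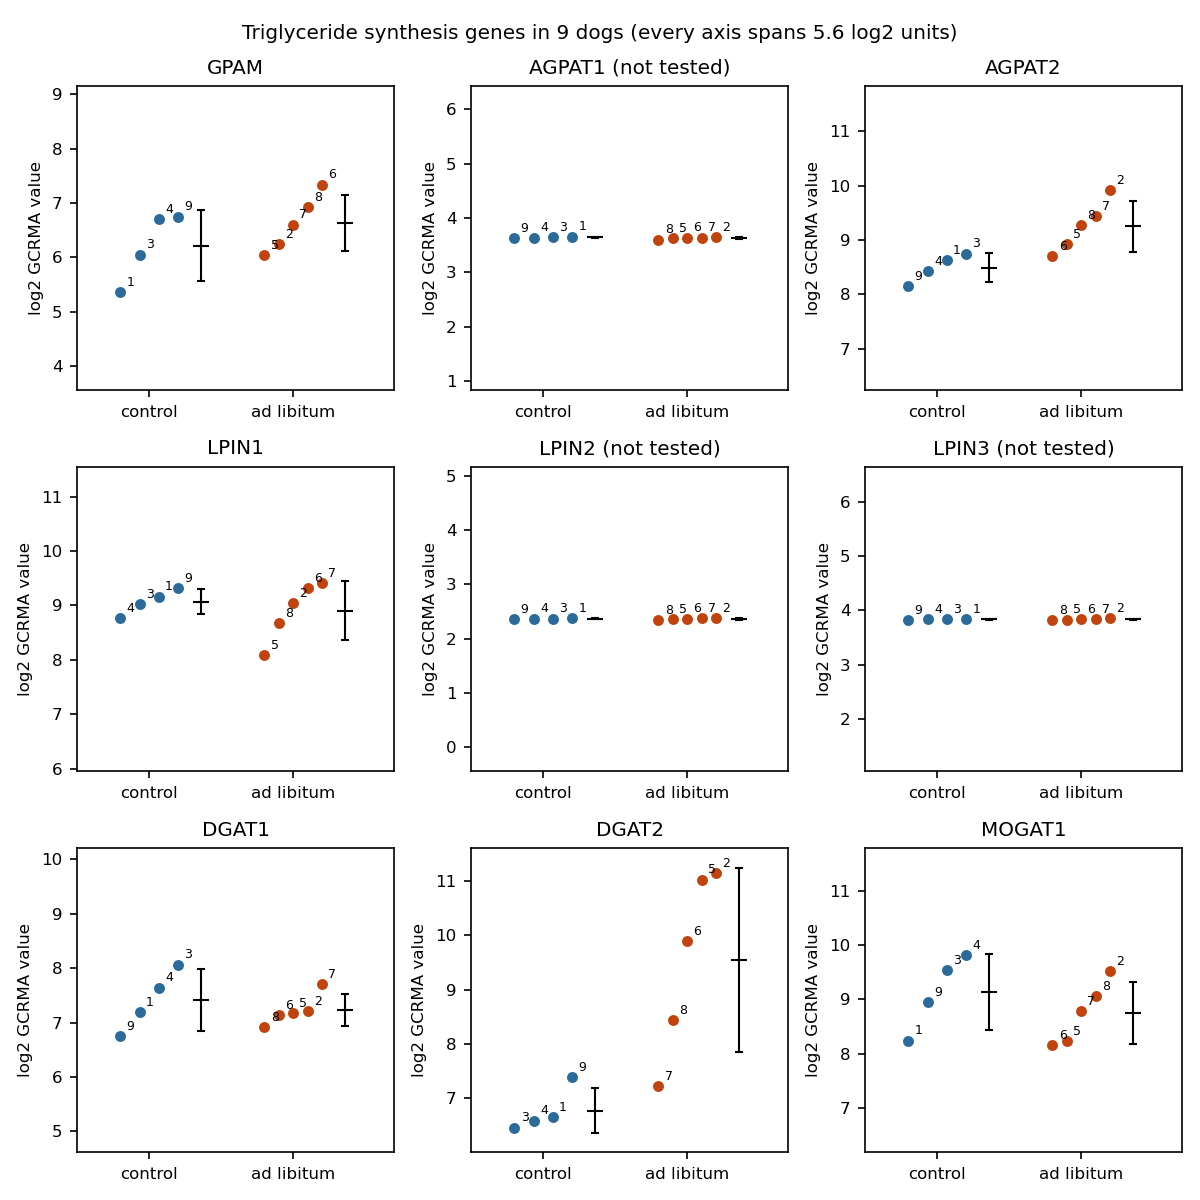
Log2 GCRMA values of the 9 triglyceride synthesis genes with a probe set, in 4 control dogs (blue) and 5 ad libitum dogs (red), each point 1 dog labelled with its animal number and bars the mean ± SD; within a group, dogs are drawn from low to high. DGAT2 spreads over 4.69 log2 units with its 4 highest values all in ad libitum dogs, while AGPAT1, LPIN2 and LPIN3 are flat near background in every dog.

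GPAM makes lysophosphatidate from glycerol-3-phosphate and is the entry step of the pathway at the mitochondrial outer membrane. Its log2 values were 6.24, 6.04, 7.34, 6.60 and 6.93 in ad libitum dogs 2, 5, 6, 7 and 8, and 5.36, 6.05, 6.70 and 6.75 in control dogs 1, 3, 4 and 9. The groups overlapped over most of their range, with control dog 1 lowest and ad libitum dogs 6 and 8 above every control dog. The difference was 0.41 (SE 0.35, 95% interval -0.37 to 1.20, limma adjusted p = 0.861). Without control dog 1 it was 0.13. The other GPAM probe set lay between 2.87 and 3.26 in all 9 dogs and was not tested.

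AGPAT2 adds the fatty acid that turns lysophosphatidate into phosphatidate, and loss of the human gene causes a congenital lack of adipose tissue. Its values were 9.92, 8.93, 8.70, 9.44 and 9.27 in ad libitum dogs 2, 5, 6, 7 and 8, against 8.64, 8.75, 8.43 and 8.15 in control dogs 1, 3, 4 and 9. All ad libitum dogs except dog 6 lay above every control dog, and dog 6 lay below control dog 3 alone. The means were 9.25 ± 0.471 (SD, n = 5) and 8.49 ± 0.263 (SD, n = 4), a log2 difference of 0.76 (SE 0.24, 95% interval 0.21 to 1.31) or a signal ratio of 1.69. It ranked at position 232 of the 18394 probe sets by limma p (unadjusted p = 0.0121, adjusted p = 0.796). With a dog left out the difference ran from 0.59 to 0.90. AGPAT2 had 1 probe set, so no second one could be set beside it.

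AGPAT1, of the same enzyme class, gave no usable signal. Its representative probe set lay between 3.60 and 3.66 in all 9 dogs and its other one between 2.60 and 2.68. Spans this narrow at such low values are those of probe sets near background on a GCRMA scale, so they bound no difference in AGPAT1 between the groups.

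The lipins remove the phosphate of phosphatidate, and LPIN1 is the main form of skeletal muscle. LPIN1 stood at 9.04, 8.09, 9.31, 9.41 and 8.67 in ad libitum dogs 2, 5, 6, 7 and 8, and at 9.17, 9.03, 8.77 and 9.32 in control dogs 1, 3, 4 and 9. Ad libitum dog 5 was the lowest of the 9 and ad libitum dog 7 the highest, so the control dogs lay inside the ad libitum range. The log2 difference was -0.17 (SE 0.27, 95% interval -0.77 to 0.43, limma adjusted p = 0.932), and without ad libitum dog 5 its sign turned, to 0.039. Another tested LPIN1 probe set gave a difference of -0.0019 (SE 0.25) with the same lowest and highest dog. Its last probe set lay between 2.29 and 2.38. LPIN2 had 1 probe set, between 2.34 and 2.38 in all dogs, and LPIN3 had 3 with none above log2 4 on any array. The representative one of LPIN3 ran from 3.82 to 3.86, and none of these was tested.

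DGAT2 showed the largest difference of the 6 tested genes. It adds the last fatty acid of triglyceride and is linked mainly to the storage of newly made fatty acids. Its values were 11.1, 11.0, 9.90, 7.23 and 8.44 in ad libitum dogs 2, 5, 6, 7 and 8, and 6.66, 6.46, 6.59 and 7.39 in control dogs 1, 3, 4 and 9. Ad libitum dogs 2, 5 and 6 stood well apart, dog 8 was intermediate, and dog 7 lay among the controls, just below control dog 9. The spread was wider among ad libitum dogs: the means were 9.55 ± 1.69 (SD, n = 5) and 6.77 ± 0.418 (SD, n = 4). The difference of 2.77 had a 95% interval of 1.05 to 4.50 and corresponds to a 6.83-fold ratio of signal. The limma fit takes the same variance in both groups, so that interval does not allow for the unequal spread.

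By limma p DGAT2 ranked at position 73 of the 18394 probe sets (unadjusted p = 0.00528, adjusted p = 0.796). Leaving out single dogs gave differences from 2.37, without ad libitum dog 2, to 3.35, without ad libitum dog 7 (limma adjusted p = 0.0997). DGAT2 and AGPAT2 ranked some dogs differently. Dog 7, the lowest ad libitum dog for DGAT2, was second among all dogs for AGPAT2, and dog 6, lowest in its group for AGPAT2, had the third highest DGAT2.

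The other 3 probe sets of DGAT2 also had ad libitum dogs 2, 5 and 6 as the 3 highest. The tested one read 8.78, 8.79, 7.63, 5.46 and 5.99 in ad libitum dogs 2, 5, 6, 7 and 8, and 5.07, 4.78, 4.57 and 5.42 in control dogs 1, 3, 4 and 9. All 5 ad libitum dogs lay above the 4 control dogs here, though dog 7 by a narrow margin, and it was the only tested probe set of the 10 from the list with groups apart. Over all tested probe sets 0.739% had every ad libitum dog above and 0.696% had every one below. Its difference was 2.37 (SE 0.70, limma adjusted p = 0.796). The remaining pair exceeded log2 4 on 3 arrays each, those of ad libitum dogs 2, 5 and 6, and so missed the filter. Their mean differences were 2.07 and 1.42, with control dogs between 2.48 and 3.23 and between 2.59 and 2.64, near background, so these sizes are uncertain.

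**Figure D2:**
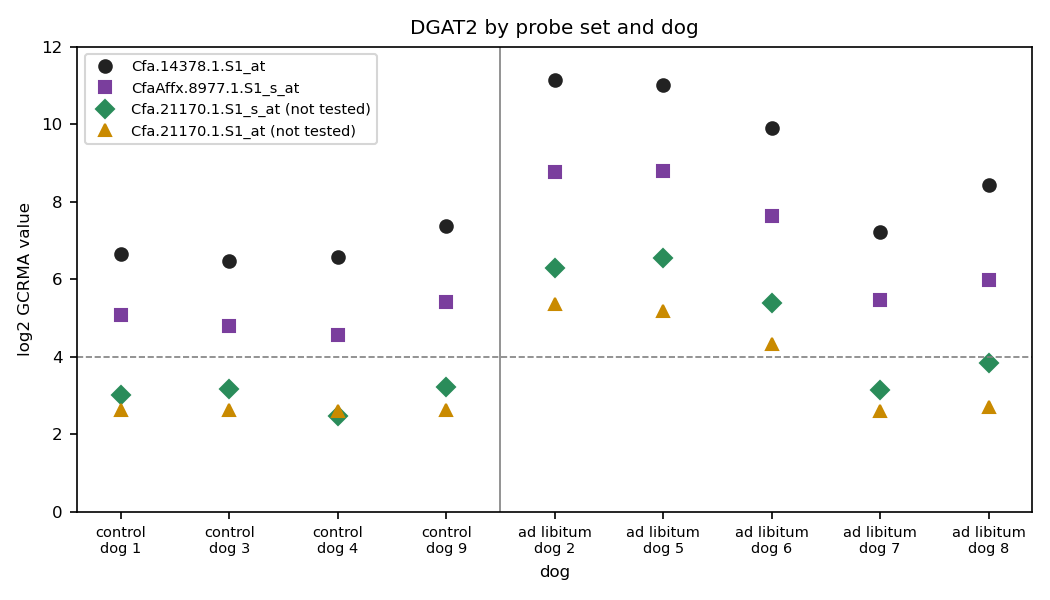
Log2 GCRMA value of the 4 DGAT2 probe sets (symbols) in each of the 9 dogs, control dogs left and ad libitum dogs right of the vertical line; the dashed line is the filter at log2 4. In every probe set ad libitum dogs 2, 5 and 6 are the 3 highest and ad libitum dog 7 lies near the control dogs.

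DGAT1, the other diacylglycerol acyltransferase, did not follow DGAT2. It read 7.21, 7.18, 7.14, 7.71 and 6.92 in ad libitum dogs 2, 5, 6, 7 and 8, and 7.19, 8.07, 7.64 and 6.75 in control dogs 1, 3, 4 and 9. The control dogs held both the highest value, dog 3, and the lowest, dog 9, so every ad libitum dog fell inside the control range. The log2 difference was -0.18 (SE 0.26, 95% interval -0.78 to 0.41, limma adjusted p = 0.922). It was 0.036 without control dog 3 and -0.40 without control dog 9. Another DGAT1 probe set differed by -0.070 (SE 0.20), and there ad libitum dog 8, at 6.44, lay below the lowest control dog, at 6.57. The upper bound for DGAT1 lies below the lower bound of 1.05 for DGAT2. However, both intervals take the same variance in both groups, and the difference between the genes was not itself tested.

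MOGAT1, which makes diacylglycerol from monoacylglycerol, was measured by both of its probe sets. The representative one gave 9.52, 8.23, 8.16, 8.78 and 9.05 in ad libitum dogs 2, 5, 6, 7 and 8, and 8.24, 9.54, 9.81 and 8.95 in control dogs 1, 3, 4 and 9. Low and high dogs occurred in both groups, with ad libitum dogs 5 and 6 and control dog 1 the 3 lowest. The log2 difference was -0.38 (SE 0.37, 95% interval -1.23 to 0.46, limma adjusted p = 0.880), and it ran from -0.68, without control dog 1, to -0.16, without control dog 4. The other probe set had the same 3 lowest dogs and a difference of -0.22 (SE 0.49).

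Pairs among the 6 tested genes were compared over the 9 dogs. Of the 15 pairs, 0 had an exact permutation p under 0.05, for Pearson's r or Spearman's rho. The highest r was that of AGPAT2 and DGAT2, at 0.52 (rho = 0.48, exact permutation p = 0.157 and 0.194, adjusted over the 15 pairs 0.960 and 0.689). After each group's mean was subtracted, that r was -0.10, and without ad libitum dogs 2 and 5 it was 0.19. The lowest was that of DGAT1 and DGAT2, at -0.42 (rho = -0.52, exact permutation p = 0.265 and 0.162, adjusted 0.960 and 0.689). It was -0.51 without ad libitum dogs 2 and 5. For GPAM and DGAT2, leaving out the same dogs raised r from 0.16 to 0.75, while subtracting group means gave -0.21. That change was read after the values were seen and was not tested.

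Markers of adipocytes, macrophages and fibroblasts had higher means in ad libitum dogs, with no single marker past the adjusted threshold. The adipocyte list (14 genes such as ADIPOQ, LEP, PLIN1, CIDEC and FABP4) had 13 tested members. All 13 had higher means in ad libitum dogs, against 49.6% of represented genes. In limma 0 of the 13 passed the adjusted threshold and 2 had an unadjusted p under 0.05, against 6.23% of represented genes. The remaining gene, ACVR1C, was below the filter, with a lower mean in ad libitum dogs. Their mean per dog ran from 7.44 to 9.34 in ad libitum and from 7.12 to 8.41 in control dogs, a difference of 0.86. In these bulk samples more adipocytes and more RNA per adipocyte cannot be told apart. None of the 6 tested triglyceride synthesis genes is on that marker list.

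Of the 6 tested genes, DGAT2 was the one whose relation to the adipocyte mean passed the exact test, and whether its correlation differs from those of the other genes was not tested. Over the 9 dogs its r was 0.85 (rho = 0.87, exact permutation p = 0.00465 and 0.00451, adjusted over 6 genes 0.0279 and 0.0271). The r was 0.86 without the dogs farthest from the median, ad libitum dog 7 and control dog 4, and 0.77 after group means were subtracted. The permutations ignored group, so their p also takes in the difference between groups, and the r of 0.77 was not tested. The other 5 genes had r between -0.57, for DGAT1, and 0.46, for AGPAT2, with adjusted exact permutation p from 0.331 to 0.929. Control dog 1 and ad libitum dog 8 had nearly equal adipocyte means, 8.41 and 8.43, with DGAT2 at 6.66 and 8.44. Control dog 3 and ad libitum dog 7 were also close, at 7.49 and 7.44, with DGAT2 at 6.46 and 7.23. Control dog 9, at 7.85, had DGAT2 at 7.39, above that of ad libitum dog 7. These are values of single dogs, and the pairs were not tested.

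With the adipocyte mean as a covariate the DGAT2 difference was 1.43 (SE 0.65, limma unadjusted p = 0.0552), or 1.93 times smaller than without it. That of AGPAT2 was 0.74 (SE 0.32, unadjusted p = 0.0477), near its value without the covariate, and both had a limma adjusted p of 1.00. That of DGAT1 turned to 0.14 (SE 0.30), that of GPAM was 0.68 and that of MOGAT1 -0.11. Macrophage markers had higher means in 8 of 8 tested members. In limma 0 of these 8 passed the adjusted threshold and 3 had an unadjusted p under 0.05, CD163 among them. CD163 averaged log2 3.83 in control dogs, with 4 ad libitum dogs above the highest control value of 4.06. It could thus pass the filter through ad libitum dogs alone. CD14 was flat in control dogs, at 4.627 to 4.635. Values this low are uncertain, and so are the sizes of these differences and of that in the macrophage mean. CD68, CSF1R, AIF1 and TYROBP missed the filter, each with a higher mean in ad libitum dogs. Fibroblast markers had higher means in 10 of 10, with 0 past the adjusted threshold and 4 at an unadjusted p under 0.05. Of all represented genes, 49.6% had higher means in ad libitum dogs and 6.23% had an unadjusted p under 0.05. The macrophage mean ran from 5.00 to 8.01 in ad libitum and from 4.90 to 5.66 in control dogs, a difference of 1.12. The fibroblast mean ran from 8.19 to 11.9 and from 8.11 to 9.39, a difference of 1.53, and the endothelial mean from 8.24 to 8.90 and from 8.38 to 8.55, a difference of 0.059.

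DGAT2 followed the macrophage and fibroblast means about as closely as the adipocyte mean. Its r with the fibroblast mean was 0.87 (rho = 0.82, exact permutation p = 0.00246 and 0.0108, adjusted over 18 relations 0.0299 and 0.0969). With the macrophage mean it was 0.85 (rho = 0.82, exact permutation p = 0.00332 and 0.0108, adjusted 0.0299 and 0.0969). After group means were subtracted these were 0.79 and 0.77, and without ad libitum dogs 5 and 6 they were 0.77 and 0.81. The r of DGAT2 with the endothelial mean was 0.26 (rho = 0.12, adjusted exact permutation p = 0.744 and 0.873). The relation was thus shared by 3 marker lists, and the part of macrophages and fibroblasts in the DGAT2 difference was not tested. The macrophage mean includes CD163 and CD14, whose values were low and uncertain in control dogs.

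**Figure D3:**
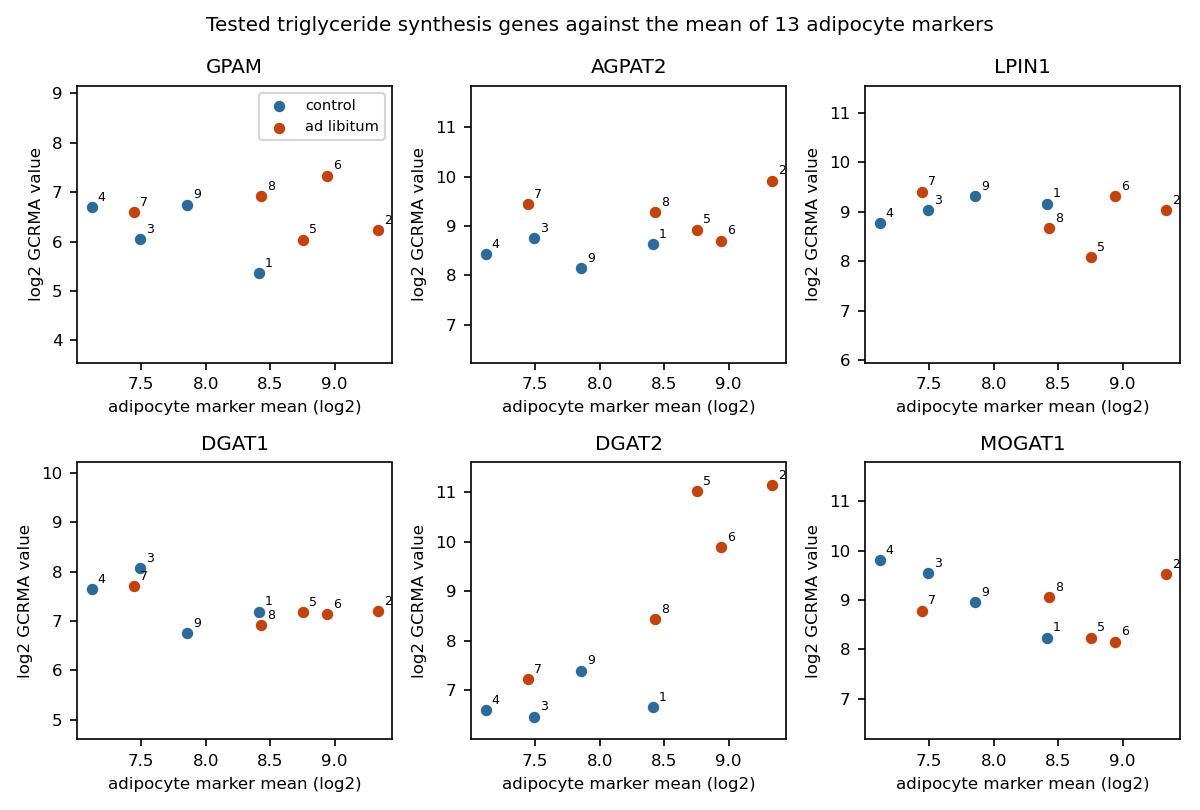
Log2 GCRMA value of each tested triglyceride synthesis gene (vertical axis) against the mean log2 value of 13 adipocyte markers (horizontal axis) in 4 control dogs (blue) and 5 ad libitum dogs (red), labelled by animal number. DGAT2 climbs with the marker mean (r = 0.85), while the other 5 genes have r between -0.57 and 0.46.

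The rest of the glycerolipid pathway was read from a list of 45 genes for acyl-CoA, glycerol-3-phosphate, phosphatidate and phospholipid metabolism. Of these, 40 had a probe set and 27 were tested. In limma 0 of 27 passed the adjusted threshold, 16 had higher and 11 lower means in ad libitum dogs, and their median difference was 0.059. At an unadjusted p under 0.05 there were 5, or 18.5%, against 6.23% of the 7534 represented genes. These were PCK1, PLPP1, CEPT1 and PEMT, with higher means in ad libitum dogs, and ACSL6, with a lower mean.

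Other enzymes of the acylation and fatty acid activation steps had differences in both directions, none past the adjusted threshold. GPAT3, a glycerol-3-phosphate acyltransferase of the endoplasmic reticulum, differed by -0.16 (SE 0.35), which became 0.092 when ad libitum dog 5 was omitted. AGPAT4, a further member of the AGPAT family, differed by -0.13 (SE 0.18). GPAT4 and AGPAT5 had no probe set by symbol, and MOGAT2 and MOGAT3 were below the filter. Of the long-chain acyl-CoA synthetases, which activate fatty acids, ACSL1 differed by 0.37 (SE 0.25), ACSL3 by 0.16 (SE 0.33) and ACSL5 by 0.19 (SE 0.21). ACSL4 differed by -0.44 (SE 0.34) and ACSL6 by -0.56 (SE 0.25), or by -0.73 in its other probe set. ACSL6 stood between 6.47 and 7.60 in ad libitum and between 7.36 and 7.87 in control dogs, with all ad libitum dogs except dog 7 below every control dog.

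Glycerol-3-phosphate supply is covered by PCK1 of glyceroneogenesis, the glycerol kinase GK and the dehydrogenase GPD1. PCK1 read 10.2, 10.1, 9.51, 6.65 and 10.5 in ad libitum dogs 2, 5, 6, 7 and 8, and 7.67, 4.38, 1.91 and 8.44 in control dogs 1, 3, 4 and 9. Ad libitum dog 7 was again the low dog of its group, below control dogs 1 and 9. The difference was 3.81 (SE 1.35, limma adjusted p = 0.796), and 2.58 without control dog 4, whose value was near background. Its 3 tested probe sets differed by 1.28 to 3.81. GK differed by 0.51 (SE 0.25) and by 0.10 in another probe set, and GPD1 by -0.21 (SE 0.14).

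PLPP1, a lipid phosphate phosphatase of membranes, was the single tested pathway gene with groups apart, 1 of 27 or 3.70%. Of all tested probe sets, 0.739% had every ad libitum dog above the control dogs and 0.696% had every one below. PLPP1 stood between 11.90 and 12.48 in ad libitum and between 11.53 and 11.87 in control dogs, so the groups were apart by a narrow margin. The mean difference was 0.41 (SE 0.15, limma adjusted p = 0.796). Genes of phospholipid synthesis differed in both directions, none past the adjusted threshold. CEPT1, which makes phosphatidylcholine and phosphatidylethanolamine, differed by 0.36 (SE 0.13), CHPT1, a cholinephosphotransferase, by 0.66 (SE 0.31) and PEMT, a methyltransferase of phosphatidylethanolamine, by 0.42 (SE 0.17). Another PEMT probe set gave 0.12. PCYT1A and PCYT2, which make the activated head groups of these lipids, differed by -0.094 (SE 0.16) and -0.23 (SE 0.27). DGKA, a diacylglycerol kinase, differed by 0.54 (SE 0.31), and FITM1, a lipid droplet factor of muscle, by -0.19 (SE 0.12).

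**Figure D4:**
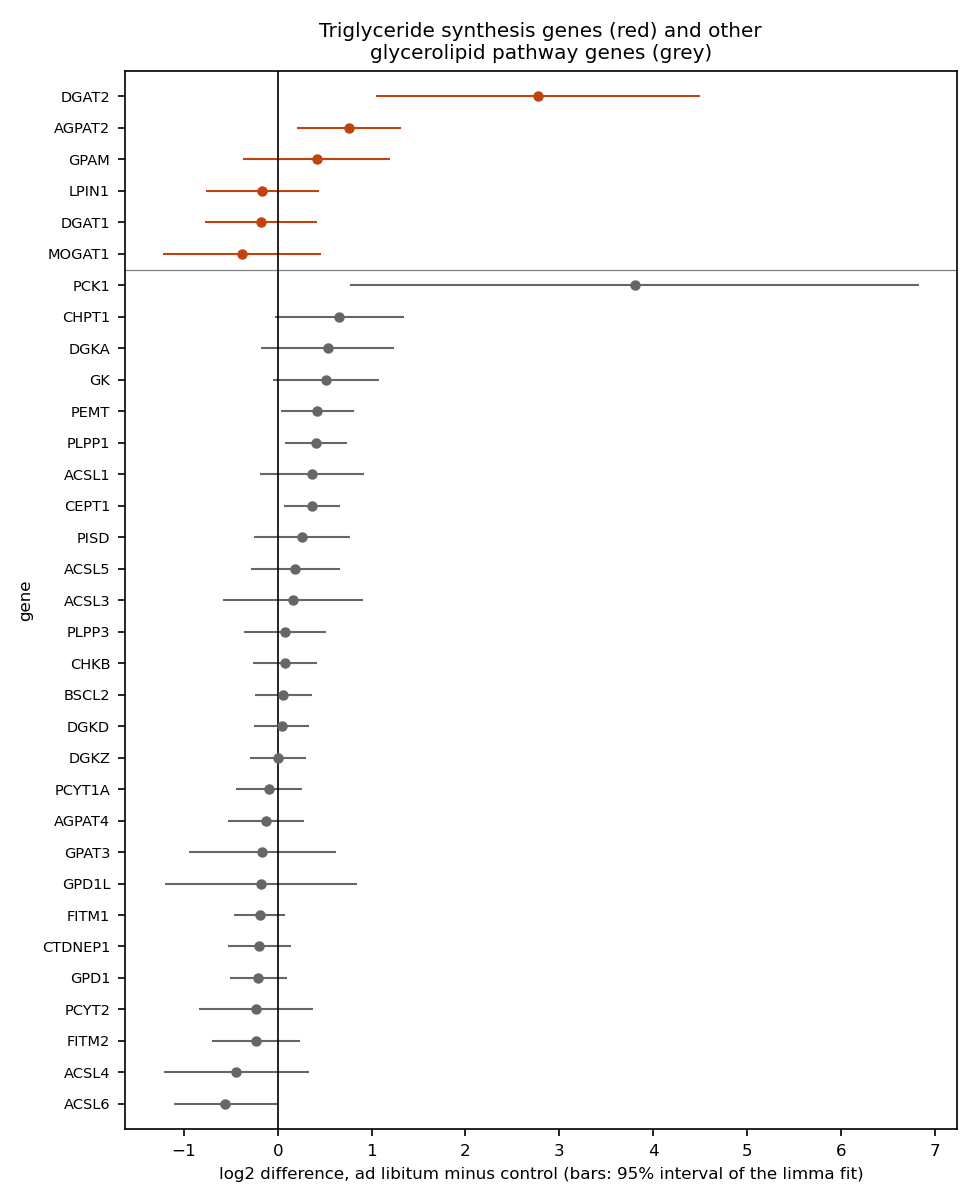
Log2 difference, ad libitum minus control, of the 6 tested triglyceride synthesis genes (red) and 27 tested genes of the wider glycerolipid pathway (grey), with bars for the 95% interval of the limma fit. The intervals of DGAT2 (1.05 to 4.50) and AGPAT2 (0.21 to 1.31) lie above 0, as unadjusted intervals, and the other 4 red intervals cross 0.

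Among the other 7533 represented genes, those most like DGAT2 over the 9 dogs by Pearson's r were MARK1 (0.97), SEC61B (0.97), TSPAN4 (0.95) and EFEMP2 (0.95). After group means were subtracted their r ran from 0.89 to 0.95, and each had a higher mean in ad libitum dogs, by 0.63, 0.79, 1.74 and 1.10. MARK1 averaged log2 4.24 over the 9 dogs, close to the filter at log2 4, where values are uncertain. For GPAM they were SYNM, NAP1L4, HEXIM1 and FAM20B, with r from 0.91 to 0.95. For LPIN1 they were FKBP5 (0.93), CACNB1 (0.92), LDB3 (0.90) and BPGM (0.86). These are the highest values among all those genes over 9 dogs and are given as a description.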

How the data were processed

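Muscle RNA of 9 dogs was hybridised to 1 Affymetrix canine array each. Per the submitters' processing notes the authors used GCRMA, version not given, to make the deposited log2 values. GCRMA corrects background by probe sequence, equalises arrays by quantiles and summarises each probe set. The log base was taken from the range of the values, 0.652 to 16.6. Quantile normalization would hide a shift of most transcripts, and GCRMA leaves values near background uncertain. Of 43035 probe sets, 111 controls were left out. Names follow the 2016 platform annotation, in which 29254 other probe sets carried a single symbol and 439 carried more than one and stayed unnamed. Chromosome positions are not given because the values carry no genome build, and no sequences were used here.

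Groups came from the labels, and dogs keep their animal numbers. The labels name no batch or pairing. The fit used limma 3.58.1 under R 4.3.3 (two-sided, no covariate, 7 residual and 2.32 prior degrees of freedom), and p was adjusted by Benjamini-Hochberg over the 18394 probe sets above log2 4 on at least 4 arrays. The median standard error was 0.197. The steps were tested on simulated data. Correlations over dogs used exact permutation of the pairings, two-sided. The number of arrays limits precision.

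The members, lists and naming rules were chosen with earlier results of these data known. Named were all members, the 10 pathway genes of lowest p with GPAT3 and AGPAT4, and the 4 genes most correlated with DGAT2, GPAM and LPIN1. ACSL1, ACSL3, ACSL4, ACSL5, PCYT1A and PCYT2, and the relations to macrophage, fibroblast and endothelial means, were added after values were seen. Alternatives tried were omitting the filter, filtering at log2 6, raising values below log2 4 to 4, cyclic loess, median centring, trended or robust eBayes, array weights, the adipocyte mean as a covariate, all probe sets of a gene averaged, an adjusted p under 0.10 and leaving out each dog.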

Additional observations from a re-analysis of the deposited data

Results flagged for a closer look

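In 42 sets of values (20 probe sets and the adipocyte marker mean, in each group) 3 dogs lay far from the rest of their group by the gap to the nearest dog over the group's range, where chance alone gives about 1 in 20. All were on probe sets near background. They were control dog 3 for the lower GPAM probe set (2.87, nearest other 3.04), ad libitum dog 8 for AGPAT1 (3.60, nearest other 3.63) and ad libitum dog 7 for a further LPIN3 probe set (3.55, nearest other 2.79). None of the tested DGAT2 or AGPAT2 values was set apart in this way.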

How the results depend on the processing

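For the 6 tested genes, 111 of 114 values under the alternatives kept their direction and stayed outside an adjusted p of 0.05, and the lowest adjusted p of limma among them was 0.0997. The 3 that turned sign were DGAT1 with the adipocyte covariate (0.14) and without control dog 3 (0.036), and LPIN1 without ad libitum dog 5 (0.039). Leaving out single dogs, DGAT1 ran from -0.40 to 0.036 and LPIN1 from -0.29 to 0.039. The number of probe sets past the adjusted threshold, 0 with all dogs, was 1 with the floor at log2 4 and ran from 0 to 1 with single dogs left out. The number of triglyceride synthesis genes past it was 0 under every alternative run, and was also 0 at an adjusted p under 0.10 with all dogs. Without ad libitum dog 7, DGAT2 had a limma adjusted p of 0.0997, under 0.10 though not under 0.05. The unadjusted count over all probe sets was 503 with the adipocyte covariate and 1865 with array weights. The median difference of the 6 genes ran from 0.090 to 0.41 under the settings that kept all dogs. Cyclic loess and median centring moved the median of all tested differences by -0.00035 and 0.015. AGPAT1, LPIN2 and LPIN3 moved under those settings by more than their pooled SD within groups, though by less than their whole range, to at most 0.035, which at background level has no reading. No paired analysis was possible because the groups share no animal number. The causes of these changes were not tested. With 5 and 4 arrays, the 95% intervals of GPAM, LPIN1, DGAT1 and MOGAT1 include 0 as well as differences up to 1.20 (GPAM) and down to -1.23 (MOGAT1).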
